A study of Mus musculus with 5 samples.

Results

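The olfactory neuron identity factors considered here are 9 genes of the 55411 in the count tables: *Ebf1*, *Ebf2*, *Ebf3*, *Ebf4*, *Lhx2*, *Ldb1*, *Emx2*, *Klf7* and *Zfp423*. All 9 had enough counts to be tested. The 9 were chosen by name as regulators of olfactory sensory neuron (OSN) identity, *Ebf4* having been picked out with its decrease known, and the question put to the data was whether the other members, and first of all the *Ebf* family, shared that decrease. Messenger RNA was sequenced from GFP-positive OSNs that had been FAC-sorted from the olfactory epithelium of mice homozygous for the Olfr151tm26Mom allele, in which the *Olfr151* locus also drives a tau-GFP fusion. All mice, controls included, carried this allele, were males aged 7 weeks and were killed after 5 h with their odour source. Control pools 1, 2 and 3 came from mice exposed to DMSO alone, and exposed pools 1 and 3 from mice exposed to 5% acetophenone, a ligand of the Olfr151 receptor, in DMSO. Each pool combined cells of 4 mice, and the sources differ on how many cells were sorted per mouse. Exposed pool 2 was not analysed here.

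Ebf proteins, also called Olf-1 or O/E factors, bind as dimers to a palindromic site that lies near many genes of mature OSNs. Lhx2 is a LIM-homeodomain protein that binds, often beside Ebf, to the promoters and enhancers of odorant receptor (OR) genes. Ldb1 has no DNA-binding domain of its own and joins Lhx2 molecules at distant enhancers into one hub, where a single OR gene is transcribed. Emx2 is a homeodomain protein needed for the transcription of many OR genes, Klf7 a zinc finger factor needed for the growth of OSN axons, and Zfp423, also named OAZ, a zinc finger protein that binds Ebf proteins, can inhibit them and is best known from OSN precursors.

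The 4 *Ebf* genes code for closely related proteins, and the sequences below show a run of 60 coding bases that differs little between them, with every base unlike that of *Ebf1* in capitals. They were read 5′ to 3′ from the GENCODE M21 transcripts and are shown because the comparison turns on whether reads of 50 bases can be told apart between these genes. The stretch lies in 1 coding exon of each gene on GRCm38: at chr11:44883838-44883897 (+ strand) for *Ebf1*, chr14:67387902-67387961 (+ strand) for *Ebf2*, chr7:137231225-137231284 (− strand) for *Ebf3* and chr2:130359593-130359652 (+ strand) for *Ebf4*.
Ebf1: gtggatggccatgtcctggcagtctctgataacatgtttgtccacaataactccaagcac
Ebf2: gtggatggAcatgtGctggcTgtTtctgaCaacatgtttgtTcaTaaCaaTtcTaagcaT
Ebf3: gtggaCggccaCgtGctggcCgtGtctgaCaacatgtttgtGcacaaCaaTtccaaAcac
Ebf4: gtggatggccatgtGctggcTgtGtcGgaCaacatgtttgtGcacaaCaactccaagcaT

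Even in this stretch *Ebf2*, *Ebf3* and *Ebf4* differed from *Ebf1* at 11, 10 and 8 bases. Over the whole coding sequences the identity between any pair ran from 70.8% (*Ebf2* and *Ebf4*) to 79.5% (*Ebf1* and *Ebf3*). Of all windows of 50 bases in the annotated transcripts of the 9 members, 0 were shared between 2 members. *Ebf4*, *Ebf1*, *Lhx2* and *Zfp423* shared no window with any other annotated gene. The other members shared windows with overlapping transcripts of their own loci: 2.26% for *Ebf3*, 2.75% for *Ldb1*, 4.82% for *Ebf2*, 7.18% for *Emx2* and 38.2% for *Klf7*, whose 3′ end lies opposite the noncoding gene *Gm26649* (chr1:64029463-64032927, + strand, GENCODE M21). *Gm26649* is not among the genes of the count tables that overlap *Klf7*. Reads of either strand in that stretch could therefore count towards *Klf7* and were not set aside as shared.

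The libraries held 42780403 to 49527380 counts, so 3 counts correspond to 0.0606 to 0.0701 CPM (counts scaled to the size of the library), and each member had at least 561 counts in every library. Genes of mature OSNs were abundant. The summed level of 8 markers lay between 68956 and 76133 TPM (CPM corrected for exon length) in control pools and between 56564 and 57055 in exposed pools. The scale matters here, as *Stoml3* went from 27365 to 25862 TPM but from 17271 to 18364 CPM (means). Of the 8, edgeR called 3 lower (*Cnga2*, *Cnga4* and *Cngb1*), beside 1.85% of all genes tested. DESeq2 called 2 lower (*Cnga2* and *Cngb1*), beside 7.12%. Of the B cell markers, *Ms4a1* and *Pax5* were at 0 in every library, and *Cd79a* and *Cd79b* together had 1 count in control pool 1, 33 in exposed pool 1 and 3 in exposed pool 3, values given because B cells also use *Ebf1*. Markers of globose basal cells and precursors summed to at most 1.06 TPM in control pools, against 1.02 and 8.67 TPM in exposed pools 1 and 3, with *Neurod1* counted in exposed pool 3 alone, with 232 counts. The 3 markers of horizontal basal cells summed to at most 2.99 TPM in any library. The 4 sustentacular markers summed to 112 to 314 TPM in control pools, against 394 TPM in exposed pool 1 and 156 TPM in exposed pool 3. The 7 myeloid markers summed to 38.1 to 314 TPM in control pools, against 287 and 126 TPM in exposed pools 1 and 3. Among them *Ptprc* was counted 0, 54 and 1 times in the control pools, against 542 and 517 times after exposure, and *Tyrobp* had 538, 123 and 67 against 1026 and 797. Neither was called by edgeR (adjusted p = 0.191 and 0.296), and DESeq2 called *Ptprc* higher. Both genes passed the count filter only through the exposed pools, where they were high, so these tests are no support for a rise. The pools of *Cd68*, *C1qa*, *C1qb*, *Lyz2* and *Csf1r* overlapped between conditions. *C1qb* had 602, 76 and 0 counts in the control pools, against 71 and 19 after exposure. The 5 stromal markers reached 37.9 TPM in control pool 3 and at most 8.68 TPM elsewhere.

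Control pool 3 stood apart from the other control pools over genes that were lower after exposure. For each control pool in turn, the genes were taken that were over 2-fold lower in the exposed pools than in the other control pools, and the pool was placed on the way from those controls (0%) to the exposed pools (100%). The median gene of control pool 3 lay at 46.6% of the way over 991 genes, against −3.85% over 784 genes for control pool 1 and −4.08% over 805 genes for control pool 2. Over genes more than 2-fold higher after exposure the medians were 27.5%, 7.87% and 24.8% for control pools 3, 1 and 2, so that control pools 3 and 2 lay close together on that side. In control pool 3, *Ebf3*, *Lhx2* and *Ldb1* lay 86.3%, 67.3% and 63.8% of the way to the exposed level, whereas *Emx2*, *Ebf4* and *Zfp423* lay at −5.51%, −21.6% and −22.4%. Results for *Ebf3*, *Lhx2* and *Ldb1* are therefore given with and without this library.

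At rest *Ebf2* had the highest level of the 9 members, at 601 ± 56.0 TPM (SD, n = 3 control pools), which placed it at the 98.1th percentile of the genes tested. *Lhx2* followed at 243 ± 137 TPM, with 275, 361 and 92.0 TPM in control pools 1, 2 and 3, and *Ebf4* at 243 ± 47.5 TPM. *Ebf1* was at 114 ± 13.9 TPM, *Klf7* at 60.3 ± 10.6, *Emx2* at 58.6 ± 16.7, *Ldb1* at 55.7 ± 27.0, *Zfp423* at 29.0 ± 4.82 and *Ebf3* at 26.4 ± 15.2 TPM. *Ebf2* lay above *Lhx2*, *Ebf4* above *Ebf1* and *Ebf1* above *Klf7* with no overlap between control pools, while the pools of all other neighbours in this order overlapped. The lowest members thus still lay near the middle of the genes tested, *Ebf3* at the 51.4th percentile.

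**Figure D1:**
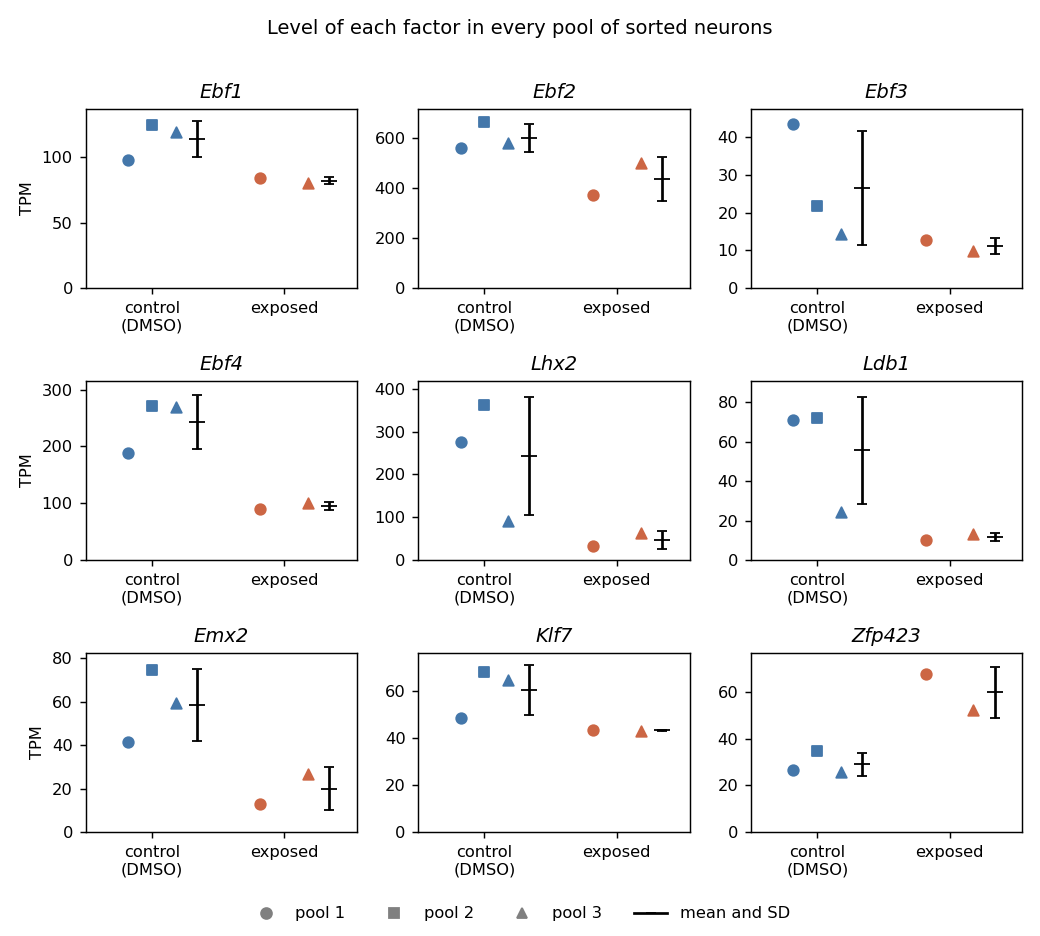
Level of the 9 members in TPM (linear axes from 0) in each control pool (blue) and exposed pool (orange); the marker shape gives the pool number, and the bar beside each group its mean and SD. Exposed pools lie below the control pools for *Ebf4* and above them for *Zfp423*, and control pool 3 lies near the exposed pools for *Ebf3*, *Lhx2* and *Ldb1*.

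After acetophenone exposure *Ebf4* fell, and it was the only one of the 4 *Ebf* genes to be called. Calls were made with edgeR's quasi-likelihood test over 10036 genes, at a Benjamini-Hochberg adjusted p under 0.1 and a log2 fold change beyond 0.5 in either direction, and they marked 1.85% of all genes tested as lower and 3.42% as higher. Of the 9 members, 2 were called lower (*Ebf4* and *Ldb1*) and 1 higher (*Zfp423*). The log2 fold change was below 0 for 8 of the 9, with a median of −1.10 against −0.03 over all genes tested, of which 52.0% were below 0. The control and exposed pools did not overlap for 8 of the 9 members, all but *Ebf3*, against 40.0% of all genes tested. Both exposed pools lay below all control pools for 7 members, against 19.6% of all genes. *Ebf4*, picked out with its decrease known, is among the members counted as lower in each case. The median is the value of *Ebf3*. These shares are therefore a description and not a test of the 9 as a set. In sorted pools of cells, fewer cells of a type and less RNA per cell cannot be told apart.

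*Ebf4* (chr2:130295169-130370481, + strand, GRCm38; counted over its exons as all members were) was measured at 191, 244 and 253 CPM in control pools 1, 2 and 3 and at 99.7 and 103 CPM in exposed pools 1 and 3. The exposed pools were thus close to each other and below every control pool. The means were 229 ± 33.9 CPM (SD, n = 3) and 102 ± 2.63 CPM (SD, n = 2), a ratio of 0.443. The log2 fold change was −1.17 ± 0.18 (SE), with a 95% interval from −1.61 to −0.74 and an adjusted p of 0.0261 by edgeR's quasi-likelihood test. Of all genes tested, 6.66% had a log2 fold change as low as this or lower. With either exposed pool left out the value hardly moved, at −1.16 without exposed pool 1 and −1.23 without exposed pool 3, but *Ebf4* was no longer called (edgeR adjusted p = 0.212 and 0.132).

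*Ebf1* and *Ebf2* did not show a decrease of this size. *Ebf1* (chr11:44617317-45008091, + strand), the founding member of the family, was at 300.3, 338 and 337 CPM in the control pools and at 278 and 251 CPM in the exposed pools. *Ebf2* (chr14:67233292-67430918, + strand) was at 1216, 1281 and 1166 CPM in the control pools and at 878 and 1104 CPM in the exposed pools. Both exposed pools lay below all control pools for both genes, exposed pool 1 farthest for *Ebf2*. Each had a log2 fold change of −0.30 ± 0.14 (SE), with an interval from −0.63 to 0.03 and edgeR adjusted p of 0.304 for *Ebf1* and 0.300 for *Ebf2*. These intervals include 0 and end above the −1.17 of *Ebf4*. For *Ebf2* the value was −0.16 without exposed pool 1 and −0.50 without exposed pool 3 (edgeR adjusted p = 0.774 and 0.243).

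*Ebf3* (chr7:137193673-137314445, − strand) could not be placed with either. Its control pools held 126, 55.6 and 38.2 CPM and its exposed pools 39.7 and 28.6 CPM, so that control pool 3 lay below exposed pool 1. The log2 fold change of −1.10 ± 0.53 (SE) was close to that of *Ebf4*, but its interval from −2.38 to 0.18 held both 0 and the value of *Ebf4* (edgeR adjusted p = 0.324). Control pool 1 was the highest by far. Without it the log2 fold change was −0.45, and without control pool 3 it was −1.38 (adjusted p = 0.160, edgeR), neither being called.

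The difference between *Ebf4* and the other members was then taken within each library, as the log2 ratio of their counts, which does not depend on how libraries are scaled. The log2 ratio of *Ebf4* to *Ebf1* was −0.66, −0.47 and −0.41 in control pools 1, 2 and 3, against −1.48 and −1.28 in exposed pools 1 and 3. That to *Ebf2* was −2.67, −2.39 and −2.20 in the same control pools, and −3.14 and −3.42 after exposure. Both ratios were thus lower in each exposed pool than in any control pool, with a difference in means of −0.86 for *Ebf1* and −0.85 for *Ebf2*. The ratio to *Klf7* differed by −0.86 and that to *Zfp423* by −2.38, again without overlap. For these 4 genes the exact two-sided permutation test gave p = 0.1, the smallest that 3 against 2 libraries allow, or 0.2 after adjustment over the 8 pairs. *Ebf4* was picked out with its decrease known, so its ratio to a gene that changed little was bound to fall. These p-values therefore do not test the decrease of *Ebf4*. *Klf7*, outside the family, gave the same −0.86 as *Ebf1*. The ratio of *Ebf4* to *Ebf3* overlapped between conditions, with a difference of −0.23 (exact permutation p = 0.8). That difference was −0.84 without control pool 1 and 0.22 without control pool 3, so its sign rests on single libraries. The ratios to *Lhx2*, *Ldb1* and *Emx2* overlapped too, with differences of 0.91, 0.78 and 0.28 (exact permutation p = 0.4 each, 0.457 adjusted). The overlap for *Lhx2* and *Ldb1* rests on control pool 3. The ratio of *Ebf4* to *Lhx2* was −0.99, −0.86 and 1.11 in control pools 1, 2 and 3, against 1.08 and 0.25 in exposed pools 1 and 3. That to *Ldb1* was 0.90, 1.41 and 2.95 in the same control pools, against 2.64 and 2.42 after exposure. Without control pool 3 these differences were 1.59 and 1.38, and the remaining pools did not overlap.

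On the scale of TPM, *Ebf4* made up 21.1%, 25.0% and 27.5% of the summed *Ebf* transcripts in the control pools and 16.2% and 14.5% in the exposed pools. The mean share was 24.5% ± 3.19 (SD, n = 3) in controls and 15.4% ± 1.18 (SD, n = 2) after exposure, a difference of −9.18 percentage points (exact permutation p = 0.1, the smallest possible). With counts in place of TPM the difference was −5.08 points. As with the ratios, the choice of *Ebf4* largely fixes the direction of this share, and its p-value does not test the decrease. *Ebf2* made up 61.1% ± 2.01 (SD, n = 3) of the sum in controls and 69.5% ± 4.10 (SD, n = 2) after exposure, without overlap. The summed level of the family was 984 ± 96.3 TPM (SD, n = 3) in controls and 624 ± 90.2 TPM (SD, n = 2) in exposed pools, and these pools did not overlap either. Unlike the shares, this sum depends on how libraries are scaled to each other, and decreases were larger in TPM than in CPM. *Ebf1*, for one, had means of 114 and 82.0 TPM against 325 and 264 CPM.

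**Figure D2:**
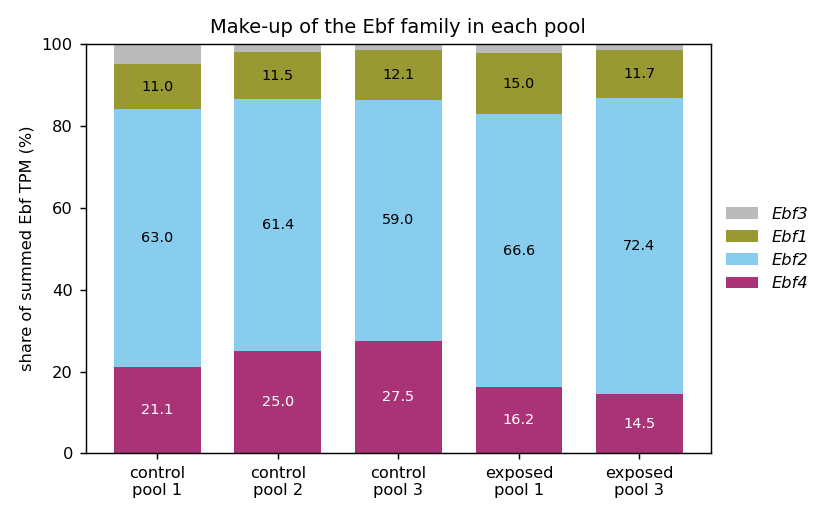
Share of each *Ebf* gene in the summed TPM of the family (%), stacked for each of the 5 pools, with the share of *Ebf4* at the bottom. *Ebf4* lies between 21.1% and 27.5% in control pools, against 16.2% and 14.5% after exposure, while *Ebf2* makes up more than all other members together in every pool.

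*Lhx2* and its cofactor *Ldb1* had the largest decreases among the 9 members, and their control pools spread widely, as did those of *Ebf3*. *Ldb1* (chr19:46031570-46045214, − strand) was at 102, 92.0 and 32.8 CPM in control pools 1, 2 and 3 and at 16.0 and 19.3 CPM in exposed pools 1 and 3. *Lhx2* (chr2:38339281-38369733, + strand) was at 379, 441 and 118 CPM in the control pools and at 47.2 and 87.1 CPM in the exposed pools. In both, control pool 3 was low and still above the exposed pools. This is the pool with the highest sum of stromal markers, *Col1a1* having 2476 counts there and at most 124 elsewhere. *Col3a1* and *Pdgfra* were also highest there, but other markers of the list were not. *Dcn* had 37 counts there against 197 and 290 in control pools 1 and 2, and *Pdgfrb* had 147 against 213 and 168. The part of these markers in the levels of *Lhx2* and *Ldb1* was not tested.

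The log2 fold change was −2.10 ± 0.51 (SE) for *Ldb1*, with an interval from −3.33 to −0.87, which passed the threshold narrowly (edgeR adjusted p = 0.0987). For *Lhx2* it was −2.22 ± 0.61 (SE), with an interval from −3.70 to −0.74, and was not called (edgeR adjusted p = 0.133). The SD of log2 CPM over the control pools was 1.04 for *Lhx2*, 0.90 for *Ldb1* and 0.87 for *Ebf3*, against a median of 0.31 over the genes tested. Without control pool 3, both were called lower, with log2 fold changes of −2.59 for *Lhx2* and −2.44 for *Ldb1* (edgeR adjusted p = 0.0125 and 0.0104), where 4.25% of all genes were called lower. Leaving out any of the other 4 libraries in turn ended the call of *Ldb1*, with edgeR adjusted p from 0.177 without control pool 1 to 0.467 without exposed pool 1. The *Ldb1* gene overlaps the first bases of *Pprc1* on the other strand, and *Pprc1* had a log2 fold change of 0.39 (edgeR adjusted p = 0.700).

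*Lhx2* and *Ldb1* also followed each other across the 5 libraries. Measured as the root mean square difference of their log2 CPM after centring, *Ldb1* was the 27th nearest of 10035 genes to *Lhx2*. The 5 libraries and their depth are shared by all genes, so this is a description of these pools.

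*Emx2* (chr19:59458372-59465357, + strand) had a level of 39.0, 62.5 and 52.1 CPM in the control pools and of 13.2 and 25.9 CPM in the exposed pools. Exposed pools thus lay below all control pools, control pool 3 among them. Its log2 fold change of −1.39 ± 0.39 (SE) had an interval from −2.31 to −0.47 and was not called by edgeR (adjusted p = 0.127). *Emx2os*, which overlaps the start of *Emx2* on the other strand, had a log2 fold change of 0.28 (edgeR adjusted p = 0.735). *Klf7* (chr1:64029447-64122282, − strand) was at 123, 154 and 153 CPM in the control pools and at 119.9 and 112 CPM in the exposed pools, which are adjacent ranges. Its log2 fold change was −0.31 ± 0.18 (SE), with an interval from −0.73 to 0.11 (edgeR adjusted p = 0.395).

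*Zfp423* (chr8:87661810-87959595, − strand) was the 1 member that rose. It was at 46.9, 54.0 and 42.2 CPM in the control pools and at 129 and 93.9 CPM in the exposed pools, so each exposed pool lay well above every control pool. The means were 47.7 ± 5.92 CPM (SD, n = 3) and 111 ± 24.8 CPM (SD, n = 2). Its log2 fold change was 1.22 ± 0.23 (SE), with an interval from 0.68 to 1.77 and an edgeR adjusted p of 0.0445, and 4.67% of all genes tested had a value as high or higher. The call was lost without exposed pool 1 (log2 fold change 0.97, edgeR adjusted p = 0.345), exposed pool 3 (1.41, adjusted p = 0.108) or control pool 2 (1.33, adjusted p = 0.105). In relation to *Ebf4*, *Zfp423* moved from 29.0 against 243 TPM in controls to 60.0 against 95.3 TPM after exposure. No annotated gene overlaps *Zfp423* or *Ebf4*.

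**Figure D3:**
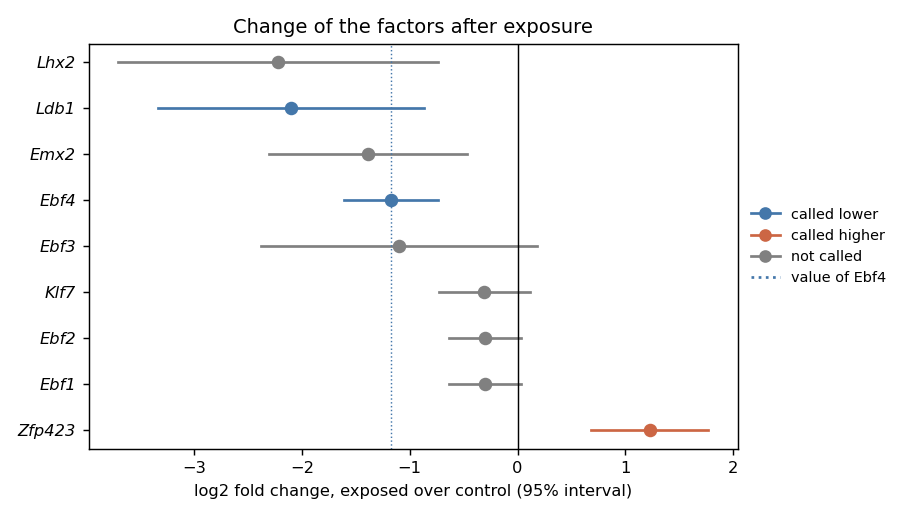
Log2 fold change of the 9 members, exposed over control, with the 95% interval of the edgeR fit; colours mark genes called lower (blue), called higher (orange) or not called (grey), and the dotted line the value of *Ebf4*. The intervals of *Ebf1*, *Ebf2* and *Klf7* end above the value of *Ebf4*, and those of *Ebf3*, *Emx2*, *Lhx2* and *Ldb1* hold it.

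DESeq2 with apeglm shrinkage, the tool the study used, called more genes at the same thresholds: 7.12% of all genes lower and 6.69% higher. It called *Ebf4*, *Ldb1*, *Lhx2* and *Emx2* lower, with shrunken log2 fold changes of −1.10, −1.83, −1.94 and −1.12, and *Zfp423* higher, at 1.14. *Ebf1*, *Ebf2*, *Ebf3* and *Klf7* were not called by it either, with shrunken values of −0.25, −0.24, −0.56 and −0.24.

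**Figure D4:**
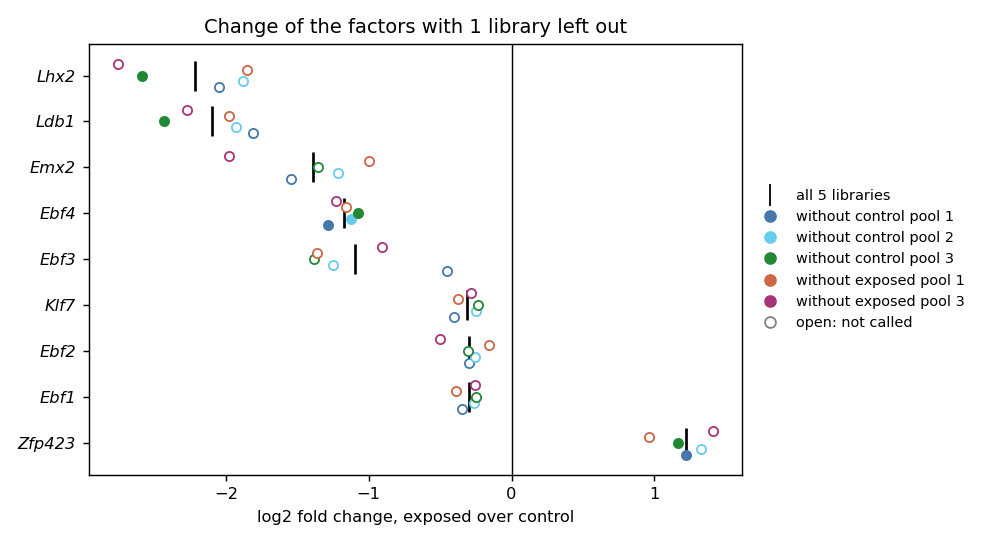
Log2 fold change of the 9 members (exposed over control) in the edgeR fit to all 5 libraries (black bar) and in the 5 fits to the remaining libraries (circles, by the library dropped, filled where the gene was called). No circle lies across 0 from its bar, *Lhx2* is called only without control pool 3 among these fits, and no member is called with either exposed pool left out.

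GC content, which can change how well cDNA is amplified, differed among the members. *Ebf4* had the highest, at 62.2%, in the top of 20 GC bins, whose genes had a median log2 fold change of −0.22. *Lhx2* was at 58.5%, *Ldb1* at 57.9%, *Zfp423* at 56.7%, *Emx2* at 52.2%, *Ebf3* at 49.4%, *Klf7* at 45.3%, *Ebf2* at 45.0% and *Ebf1* at 43.1%. With offsets for these bins, an alternative chosen after seeing the data, *Ebf4* was at −1.01 and still called (edgeR adjusted p = 0.0495), while *Ldb1* at −2.04 no longer was (edgeR adjusted p = 0.103).

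The 5 genes most like *Ebf4* over the 5 libraries, by the same distance of centred log2 CPM, were *Tmem94*, *Mslnl*, *Rp2*, *St6galnac6* and *Aacs*. Their distances ran from 0.07 to 0.09 and all 5 were called lower, which follows from how they were chosen. Among the members, *Emx2* was nearest to *Ebf4*, at a distance of 0.33 and rank 462 of 10035, and *Zfp423* farthest, at 1.18.

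Known partners and paralogs of these factors did not move as 1 group. Of 14 listed genes, 8 were tested, 1 was called lower and 1 higher, beside 1.85% and 3.42% of all genes tested. The median log2 fold change was −0.16. *Ssbp4*, one of the single-stranded DNA-binding proteins that stabilise Ldb1, fell: it was at 93.2, 76.6 and 70.8 CPM in the control pools and at 28.3 and 37.1 CPM in the exposed pools, without overlap (log2 fold change −1.29 ± 0.25 (SE), edgeR adjusted p = 0.0498). *Klf6*, a paralog of *Klf7*, rose from 90.5, 101 and 106 CPM in the control pools to 200.5 and 147 CPM in the exposed pools (log2 fold change 0.81 ± 0.19 (SE), edgeR adjusted p = 0.0898). *Ssbp2*, the most abundant gene of the list at 143 ± 1.82 TPM (SD, n = 3 control pools), had a log2 fold change of −0.23 (edgeR adjusted p = 0.391). *Lmo2*, a LIM-only protein that binds Ldb1, had one of 0.68 (edgeR adjusted p = 0.226).

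*Ssbp3*, named after its values were seen, was at 93.4, 68.1 and 24.7 CPM in the control pools and at 25.8 and 28.7 CPM in the exposed pools, with control pool 3 slightly below both exposed pools (edgeR adjusted p = 0.299). *Lmo3* and *Emx1* were at 0 in every library. *Lhx9* had at most 10 counts in a library, *Ldb2* was counted only in control pool 1, with 136 counts, and *Zfp521*, the paralog of *Zfp423*, reached 142 counts in control pool 3 and at most 2 elsewhere.

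Of 4 genes long known for Olf-1 sites in their promoters, 1 was called lower and 0 higher by edgeR's test, beside 1.85% and 3.42% of all genes. At an unadjusted p under 0.05, 2 were lower and 0 higher, where 9.91% of all genes tested were lower and 9.24% higher. DESeq2 called 1 lower and 0 higher, beside 7.12% and 6.69% of all genes. *Cnga2*, a subunit of the transduction channel, was at 5500, 5973 and 5200 CPM in the control pools and at 3352 and 2898 CPM in the exposed pools (log2 fold change −0.83 ± 0.12 (SE), edgeR adjusted p = 0.0194). *Omp*, which encodes the olfactory marker protein, had a log2 fold change of −0.32 (edgeR adjusted p = 0.165), *Gnal*, the G protein alpha subunit of OSNs, one of −0.17 (edgeR adjusted p = 0.596), and *Adcy3*, their adenylyl cyclase, one of −0.59 (edgeR adjusted p = 0.505). The values of the list were all below 0, as were 52.0% of all genes tested, with a median of −0.45. *Gnal* and *Adcy3* overlapped between conditions. *Adcy3* was at 2165 CPM in exposed pool 1 and 6268 CPM in exposed pool 3, against 5438 to 7506 CPM in control pools.

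Among 24 other regulators of the olfactory lineage, 12 were tested. By edgeR 1 was called higher and 0 lower, beside 3.42% and 1.85% of all genes, and the median log2 fold change was −0.18. At an unadjusted p under 0.05, 1 of the 12 was lower and 1 higher, shares close to the 9.91% and 9.24% of all genes tested. DESeq2 called 1 lower and 1 higher (*Nhlh1*), beside 7.12% and 6.69% of all genes. The lower gene was in both cases *Bcl11b* (log2 fold change −1.43, edgeR adjusted p = 0.127), a zinc finger factor of OSN subtypes named after its values were seen. *Nhlh1*, a helix-loop-helix factor of differentiating neurons, was at 0.60, 1.06 and 0.92 CPM in the control pools and at 5.49 and 4.08 CPM in the exposed pools (log2 fold change 2.47 ± 0.60 (SE), edgeR adjusted p = 0.0920), which is a low level throughout. Its counts were 26, 52 and 42 in the control pools and 233 and 169 in the exposed pools. It thus passed the filter of 142 counts only through the group where it was high, so its call is no support for a rise. *Uncx*, *Atf5* and *Fezf1*, the most abundant of the list, had log2 fold changes of −0.79, −0.18 and 0.41 and were not called (edgeR adjusted p = 0.407, 0.732 and 0.333). *Uncx* was at 77.7 CPM in exposed pool 1 and at 250.1 CPM in exposed pool 3, against 256 to 301 CPM in control pools. Of the immature OSN markers, *Gap43* was called higher (log2 fold change 0.94, edgeR adjusted p = 0.0890). *Gng8* had a log2 fold change of 1.13, with both exposed pools above all control pools, and was not called (edgeR adjusted p = 0.240). For *Stmn2* it was 0.19 (edgeR adjusted p = 0.589). *Dcx* and *Tubb3* had log2 fold changes of −0.90 and −0.60, with both exposed pools below all control pools, and were not called by edgeR (adjusted p = 0.116 and 0.198), while DESeq2 called *Dcx* lower. The 5 markers summed to 885 to 1002 TPM in control pools, against 1035 and 854 TPM in exposed pools 1 and 3. The part of immature and precursor markers in the changes of *Zfp423* and *Nhlh1* was not tested.

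**Figure D5:**
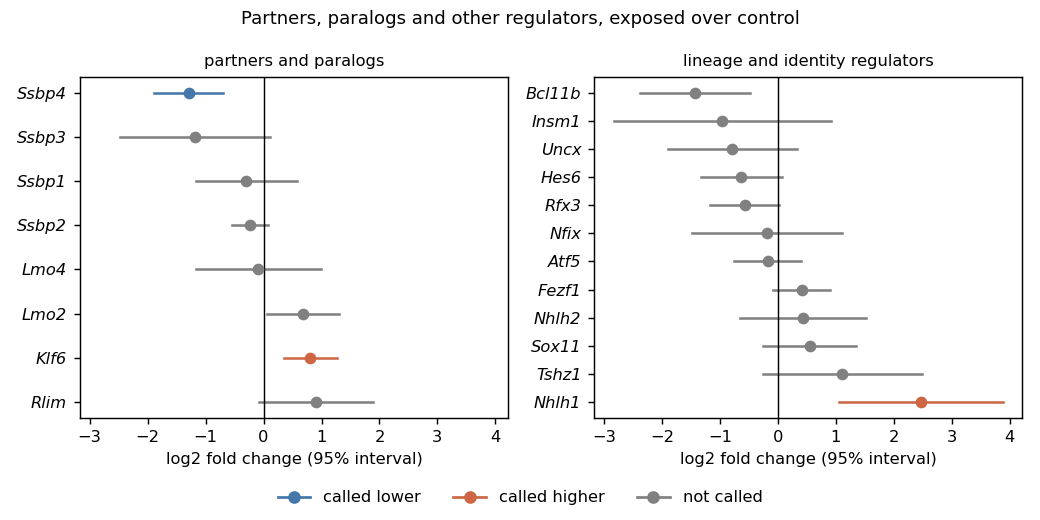
Log2 fold change, exposed over control, with the 95% interval of the edgeR fit for the tested partners and paralogs (left) and the tested regulators of the olfactory lineage (right). In the left panel *Ssbp4* is called lower (blue) and *Klf6* higher (orange), in the right panel *Nhlh1* is called higher, and all others are not called (grey).

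The promoters of the members were searched on both strands for the core of the Ebf site, CCCNNGGG preceded by T and followed by A, and for TAATTA, the core that Lhx2 and many other homeodomain proteins bind. RefSeq windows on GRCm38.p6, from 250 bases before to 50 after a gene's start, were used for 8 members (13 windows). The Ebf core occurred in 0 of the 13 windows, and in 0.904% of all 32851 windows. TAATTA occurred in 1 of the 13, and in 5.29% of all. That match is in *Emx2*, 36 bases after the RefSeq start on which its window is set, which lies downstream of the start of the gene in the count tables. It is shown from chr19:59458712-59458739 (+ strand) with the motif in capitals.
Emx2: tgtgatccccgcacTAATTAggctcatg

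Of the genes tested, 102 had the Ebf core in such a window, of which 4 were called higher and 1 lower (3.92% and 0.980%). For TAATTA these were 240 genes, with 6 called higher and 5 lower (2.50% and 2.08%), beside 3.42% and 1.85% of all genes tested. Only 7874 of the genes tested had a window, so the shares of all genes are over a larger set.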

How the data were processed

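Polyadenylated RNA of 3 control and 2 exposed pools was analysed. The authors mapped reads of 50 bases with STAR 2.7.0a to GRCm38 with the reporter added and made the deposited raw counts with featureCounts 1.6.3, per gene, over exons, without strand, multi-mapping reads or reads on several genes. Reads carry no molecular identifiers, so counts include amplification duplicates. Without strand, reads antisense to an exon count towards that exon's gene or, where both genes are annotated, towards neither. Gene names came from a reference table (55144 of 55411 identifiers matched).

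In R 4.3.3 with edgeR 4.0.16, counts were scaled by TMM and fitted with glmQLFit (robust) and glmQLFTest, with condition as the only factor. A gene was tested (10036 in all) if all libraries of 1 condition, control or exposed, reached 142 counts, the trough in the density of log2 mean counts. TPM was computed from counts and the deposited exon lengths. Intervals rest on the fit. On simulated counts for this comparison and 10036 genes, calls recovered 28% of 50 genes changed 2-fold, 60% of 50 changed 4-fold, 86% of 50 changed 8-fold and 92% of 50 changed 16-fold, with 30 false calls. P-values measure the spread between pools of different mice. Both conditions were handled on each day, and which pool belongs to which day is not given in the sources used here. With 2 exposed pools, the spread within that condition rests on 1 difference per gene.

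The members and lists were chosen with earlier results of these data known. All members were named, and from each list the called genes, otherwise the 3 with the highest TPM. *Ssbp3*, *Bcl11b*, the genes at or near 0 and single cell type markers such as *Ptprc* and *Dcx* were named after their values were seen. Some listed genes are not reported here. Alternatives were DESeq2 1.42.0 with apeglm 1.24.0, DESeq2's size factors, spike-in scaling, glmTreat, no robust estimation, other count filters, an adjusted p under 0.05, thinning to the smallest library, a replicate block, each library left out and, added after seeing the data, GC offsets. Coding identities were computed with Biopython in Python.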

Additional observations from a re-analysis of the deposited data

How the results depend on the processing

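No member changed sign under any of the 16 alternatives. *Ebf4* lay between −1.43 and −1.01 and kept its call in 12 of them. It lost the call with spike-in scaling (−1.43, edgeR adjusted p = 0.875), with the replicate block (−1.11, edgeR adjusted p = 0.177) and without either exposed pool, values with 1 library left out lying between −1.28 and −1.07. Spike-in scaling moved the median of all genes to −0.23, relative to which *Ebf4* was at −1.20, *Lhx2* at −2.09, *Ldb1* at −1.99 and *Zfp423* at 1.16. The members called lower were 2 in the fit reported, where 186 of the 10036 genes tested were called lower. With DESeq2 and apeglm they were 4, beside 715 of 10036 genes. They were 1 each with glmTreat (55 of 10036 genes), no filter (131 of 26884), filterByExpr (74 of 15544), an adjusted p under 0.05 (91 of 10036) and GC offsets (185 of 10033). Members called lower were 0 with spike-in scaling (48 of 10036 genes) and the replicate block (1 of 10036). Those with 1 library left out numbered 0 to 3. The members called higher were 0 with spike-in scaling, glmTreat, filterByExpr and the replicate block, and 0 to 1 with 1 library left out. Where edgeR called no member, 2 (spike-in scaling), 2 (replicate block), 2 (without exposed pool 1) and 5 (without exposed pool 3) of the 9 were lower at an unadjusted p under 0.05, beside 3.84%, 5.90%, 4.48% and 9.49% of all genes tested. In the fit reported these were 4 members and 9.91% of all genes.

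Over all genes, 343 were called higher and 186 lower. The counts were 93 and 48 with spike-in scaling, 671 and 715 with DESeq2, 146 and 55 with glmTreat, 190 and 91 at an adjusted p under 0.05, and 11 and 1 with the replicate block. They were 162 and 74 of 15544 genes tested with filterByExpr, 290 and 131 of 26884 with no filter, and 351 and 185 of 10033 with GC offsets. With 1 library left out they ranged from 93 to 352 and from 19 to 436, the lowest without exposed pool 1 and the highest without control pool 3. The difference in the *Ebf4* share was −5.08 points from counts in place of TPM and lay between −10.9 and −7.73 with 1 library left out. The pool numbers are not known to mark a shared day, and deviations of same-numbered pools correlated at 0.05 (pool 1) and −0.08 (pool 3), so the block result is given only here. The cause of the differences between settings was not tested.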
